A study of Rattus norvegicus with 6 samples.

Results

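The genes that make, cut, bind and surround hyaluronan were followed in lungs of bleomycin-treated and control rats, namely Has1, Has2, Has3, Hyal1, Hyal2, Cd44, Vcan, Dcn, Bgn and Lum. They were taken by gene name from the deposited table of linear transcripts, in which all 10 were found. They form 10 of 21655 gene names and 30 of 70376 transcripts, of which 16 carry an Ensembl identifier and 14 were assembled from the reads alone. The control rats received saline and the PF (pulmonary fibrosis) model rats a single dose of bleomycin at 7 mg/kg into the trachea. All were Sprague-Dawley rats of 7 weeks at the start. Apart from anesthesia for the instillation, no other agent and no altered allele are named for either group. Lung tissue of 3 rats in each group, taken on day 28, was sequenced. Each of these rats gave 1 of the libraries used here, which were prepared after removal of rRNA. Bleomycin causes an acute lung injury that is followed by scarring, so day 28 is a single late time point of a model with 1 dose. In bulk lung, fewer cells of a type and less RNA per cell cannot be told apart.

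Hyaluronan is a long sugar chain that is spun out at the cell surface by the synthases Has1, Has2 and Has3, cut by the hyaluronidases Hyal1 and Hyal2 and bound by the receptor Cd44. Versican, encoded by Vcan, is a large proteoglycan that anchors in hyaluronan networks, while decorin (Dcn), biglycan (Bgn) and lumican (Lum) are small leucine-rich proteoglycans that bind collagen fibrils. In injured lung, hyaluronan and its fragments are known to accumulate, and signals through Cd44 take part in inflammation and in the clearing of hyaluronan.

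Hyal2 had the largest difference of the members on the log2(FPKM + 1) scale, and 1 of its 3 transcripts rose in the model by the thresholds of the study. That transcript had a mean FPKM (fragments per kilobase of transcript, scaled to the size of the library) 2.43 times that of control samples. It was the 1 member transcript called of 28 tested, where 2.98% of all transcripts tested were called. Its adjusted p was 0.438 by limma. Cd44 had a mean FPKM 1.16 times that of controls and Has1, at a very low level, 0.586 times, and in both the groups did not overlap. The other 7 genes overlapped between the groups. Of all gene names tested, 10.7% had groups without overlap. None of the 10 genes passed both thresholds, and none had an adjusted p below 0.05 in the limma fit across all gene names, where their adjusted p values lay between 0.933 and 0.996.

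Promoter sequences of the 3 genes whose groups did not overlap, and of Hyal1, the neighbour of Hyal2 that it can be compared with, are shown because the 2 annotated transcripts of Hyal2 differ by their start. They were taken from RefSeq on the build GRCr8, where 6 of the 10 members matched with 7 sequences. No sequence is shown for Has2, Has3, Dcn and Bgn. Each runs 5′ to 3′ on the strand of the gene, from 250 bases before to 50 bases after the start, with every CpG dinucleotide in capitals.
Hyal2, GRCr8 chr8:117121552-117121851, plus strand: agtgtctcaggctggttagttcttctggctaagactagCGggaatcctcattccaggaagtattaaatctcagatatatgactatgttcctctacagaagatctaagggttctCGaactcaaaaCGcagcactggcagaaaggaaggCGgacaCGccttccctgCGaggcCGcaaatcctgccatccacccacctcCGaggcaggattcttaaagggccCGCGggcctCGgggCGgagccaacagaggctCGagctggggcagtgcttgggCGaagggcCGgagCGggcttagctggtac
Hyal1, GRCr8 chr8:117129061-117129360, plus strand: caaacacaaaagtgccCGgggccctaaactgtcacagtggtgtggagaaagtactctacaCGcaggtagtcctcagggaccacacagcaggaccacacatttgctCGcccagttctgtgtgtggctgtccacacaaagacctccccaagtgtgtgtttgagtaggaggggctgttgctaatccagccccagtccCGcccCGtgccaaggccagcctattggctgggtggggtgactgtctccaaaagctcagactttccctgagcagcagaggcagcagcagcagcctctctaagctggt
Cd44, GRCr8 chr3:109699375-109699674, minus strand: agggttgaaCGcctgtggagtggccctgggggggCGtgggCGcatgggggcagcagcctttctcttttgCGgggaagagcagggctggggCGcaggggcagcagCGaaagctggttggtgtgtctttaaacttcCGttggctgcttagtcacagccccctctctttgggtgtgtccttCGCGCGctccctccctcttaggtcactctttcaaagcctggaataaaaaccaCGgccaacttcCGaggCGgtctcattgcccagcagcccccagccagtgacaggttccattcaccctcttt
Has1, GRCr8 chr1:67378395-67378694, minus strand: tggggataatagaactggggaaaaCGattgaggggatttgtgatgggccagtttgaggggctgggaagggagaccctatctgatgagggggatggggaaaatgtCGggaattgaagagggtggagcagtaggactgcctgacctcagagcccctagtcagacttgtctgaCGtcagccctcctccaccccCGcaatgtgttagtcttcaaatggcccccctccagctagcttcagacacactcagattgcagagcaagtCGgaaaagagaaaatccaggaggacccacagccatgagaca

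The window of Hyal2 held 16 CpG dinucleotides and that of its neighbour Hyal1 held 5, while the median over 33469 rat promoters of this length was 7. The window of Cd44 held 13 and that of Has1 held 5. The GC box core GGGCGG, read on both strands, occurred once in the windows of Hyal2 and Hyal1 and in both of Vcan, and in 33.1% of all promoters. The SMAD core CAGAC, which is short and common, was found in 50.1% of all promoters on either strand. It occurred in the windows of Has1 (3 matches), Lum (3 matches) and Hyal1 (1 match), and not in those of Hyal2, Cd44 and Vcan. A match of letters in these windows is a description only. The RefSeq gene of Hyal2 spans 3693 bases, the same as the annotated Hyal2 transcript with the downstream start, described further on, so the window shown lies at that start if both are the same model. No sequence at the upstream start was used here.

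The levels of the 10 genes spanned more than 3 orders of magnitude on the FPKM scale, which is corrected for transcript length. Over all 6 samples Bgn was the highest, with a mean FPKM of 169.4, rank 110 among all gene names, and it held between 61.6% and 71.0% of the summed FPKM of the members in each library. Cd44 followed with a mean FPKM of 27.9. Hyal1 (18.6), Hyal2 (14.1) and Dcn (13.3) came next, and neighbours in this trio overlapped over the 6 samples. Has3 (2.91), Vcan (2.91) and Lum (2.80) formed a group whose ranges also overlapped. The value of Has3 includes an assembled transcript inside an intron, described further on. Has1, at 0.357, and Has2, at 0.0563, were the lowest. Bgn, Cd44, Dcn, Lum and Has1 were each separated from the next gene down without overlap of their 6 samples, as the plot of levels shows. The values behind the lowest genes rest on few reads. Estimated from coverage, transcript length and the read length of 150 bases, Has1 had between 17.7 and 51.7 reads per library and Has2 between 0 and 19.4, against 14970 to 23720 for Bgn.

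**Figure D1:**
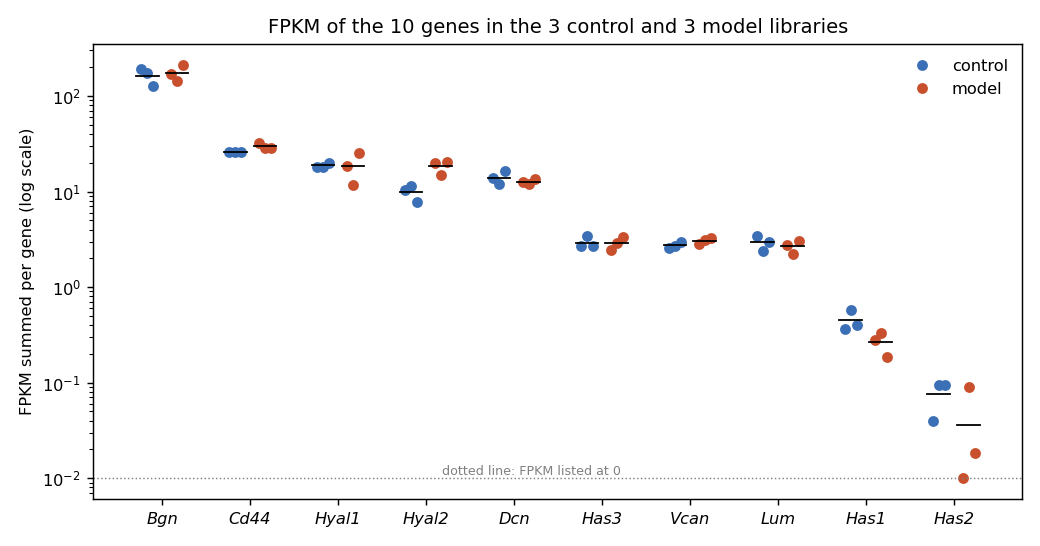
FPKM summed over the transcripts of each gene (vertical axis, log scale) for the 10 genes in order of their mean, with 1 point per library, control in blue and model in red, and a black line at each group mean. The point on the dotted line is the library in which Has2 was listed at 0, and of the higher genes only Hyal2 and Cd44 show groups without overlap.

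The groups were compared gene by gene with limma on log2(FPKM + 1), a scale on which the change of low genes is understated. A gene was called when its unadjusted p was at most 0.05 and the absolute log2 ratio of its group mean FPKM at least 1, the thresholds of the study. All 10 genes passed the filter for a test, an FPKM above 0 in 3 or more libraries. Of all 19645 gene names tested, 1.52% were called by limma, and 0 of the 10 members were. An F test on untransformed FPKM with a library covariate also called 0 of the 10 members. That covariate was the sum, in each library, of the log2(FPKM + 1) values above 0 and below their upper quartile. The p threshold by itself was met by 4.91% of all gene names and by 2 members, Hyal2 and Cd44. Groups without overlap were found for 10.7% of all gene names and for 3 members, of which Hyal2 and Cd44 were higher and Has1 lower in the model. The mean FPKM was higher in the model for 4 members and lower for 6, and the median log2 difference was -0.04 over the members and -0.01 over all gene names. The plot of differences shows the members in order.

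**Figure D2:**
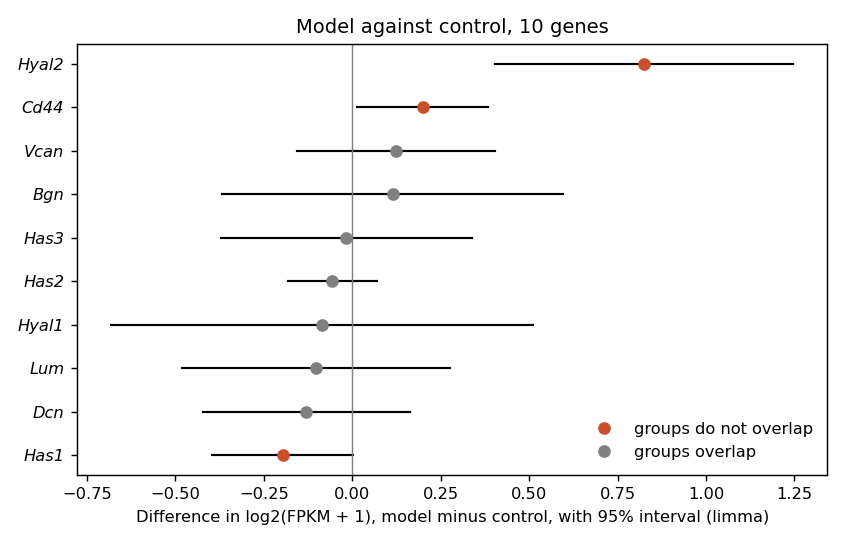
Difference in log2(FPKM + 1), model minus control, for the 10 genes, with the 95% interval from limma as a line and 3 libraries per group. Red points mark genes whose groups did not overlap, and the intervals of Hyal2 and Cd44 are the ones that lie wholly above 0.

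Among the synthases, Has3 carried between 83.5% and 94.3% of the summed FPKM in each library. The FPKM of Has3, an enzyme that makes shorter chains than Has2, was 2.67, 3.43 and 2.70 in the control samples and 2.45, 2.87 and 3.33 in the model samples. The groups overlapped throughout, and the log2 difference was -0.02 ± 0.15 (SE), with an adjusted p of 0.996 by limma. Its sign turned to positive when FPKM were rescaled to TPM, rescaled without the small RNA families or quantile normalized, so no direction can be given. The sum for Has3 is not the message of the gene alone, since a single-exon assembled transcript of 409 bases inside an intron, for which the table gives no strand, made up 54.8% ± 4.3 (SD, n = 3) of it in control samples. Between 15.4 and 35.5 estimated reads per library stood behind that assembled transcript. The annotated transcript ENSRNOT00000083515 had an FPKM of 1.31, 1.39 and 1.24 in control and 0.694, 1.31 and 1.61 in model samples. The other annotated transcript, ENSRNOT00000081116, was listed at 0 in every library but model 1, where its FPKM was 0.975 and the FPKM of ENSRNOT00000083515 was the lowest.

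Has1 had an FPKM of 0.366, 0.579 and 0.405 in control and 0.276, 0.331 and 0.184 in model samples. Every model sample lay below every control sample, but control 1 and model 2 were close. Neither threshold was met, with a log2 difference of -0.20 ± 0.08 (SE), an unadjusted p above 0.05 and an adjusted p of 0.933 by limma. Over the 17 alternatives that kept the gene its difference stayed negative, and the p threshold was met in 4 of them. Has2, the synthase that is induced in many injured tissues, had an FPKM of 0.0393, 0.0956 and 0.0949 in control samples. In model samples it was listed at 0 in model 1 and had 0.0897 and 0.0183 in the other two. The log2 ratio of the group means was -1.09, larger in size than the 0.88 of Hyal2, but with so few reads a difference in Has2 was not detectable at this depth, and its adjusted p was 0.934 by limma. The summed FPKM of the 3 synthases was 3.45 ± 0.562 (SD, n = 3) in control lungs and 3.18 ± 0.417 (SD, n = 3) in model lungs, and an exact two-sided permutation test gave p = 0.6.

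The hyaluronidases gave the clearest contrast among the members. Hyal2, an enzyme held at the cell surface that cuts long hyaluronan chains, lies in the files' coordinates on chr8:116324040-116328978 on the plus strand. The FPKM of Hyal2 was 10.4, 11.6 and 7.82 in control samples and 19.7, 14.9 and 20.5 in model samples. The lowest model sample, model 2, lay above the highest control sample, control 2. The means were 9.93 ± 1.91 (SD, n = 3) and 18.3 ± 3.03 (SD, n = 3), a ratio of 1.85. On the log2 scale the difference was 0.83 ± 0.18 (SE), with a 95% interval from 0.40 to 1.25, and the gene met the p threshold in limma but had an adjusted p of 0.933. An exact two-sided permutation test gave p = 0.1, the smallest that 3 samples against 3 allow. Between 932 and 2068 estimated reads per library stood behind these values. The p threshold was met in 18 of 19 alternatives, the exception being the F test on untransformed FPKM with the library covariate. Adjusted p values over these alternatives lay between 0.686 and 1.

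Hyal1, the lysosomal hyaluronidase, lies just downstream on the same strand, at chr8:116332796-116343068, and did not share this pattern. Its FPKM was 18.1, 18.2 and 20.0 in control samples and 18.5, 11.7 and 25.1 in model samples. The control samples were close to each other. Model 1 lay within their range, model 2 below it and model 3 above it. The log2 difference was -0.08 ± 0.25 (SE), with an interval from -0.68 to 0.51, and limma gave an adjusted p of 0.984. The ratio of Hyal2 to Hyal1 FPKM within a library was 0.575, 0.635 and 0.392 in control and 1.06, 1.27 and 0.817 in model samples. Every model library had a higher ratio than every control library, and the exact permutation p was 0.1. Because both genes are read in the same library, this ratio does not depend on how the libraries were scaled. It is limited by the level of Hyal1, which rests almost wholly on assembled transcripts that may hold signal of neighbouring genes, as described further on.

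The difference in Hyal2 lay in 1 transcript, as the bars of its transcripts show. ENSRNOT00000081353, with 4 exons and 1898 bases, had an FPKM of 7.17, 6.92 and 4.89 in control samples and 16.1, 12.5 and 17.5 in model samples. Each model sample exceeded the highest control sample by a wide gap. This transcript rose from 6.33 ± 1.25 (SD, n = 3) to 15.4 ± 2.61 (SD, n = 3), a ratio of 2.43. On the log2 scale the difference was 1.16 ± 0.19 (SE), and limma gave an adjusted p of 0.438 over all 64867 transcripts tested, so it passed the thresholds of the study but not the adjustment. It was the only member transcript called, 1 of 28 tested, where 2.98% of all transcripts tested were called. It was called in each of 16 alternatives, with log2 differences between 1.01 and 1.30 and adjusted p values between 0.277 and 0.969.

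**Figure D3:**
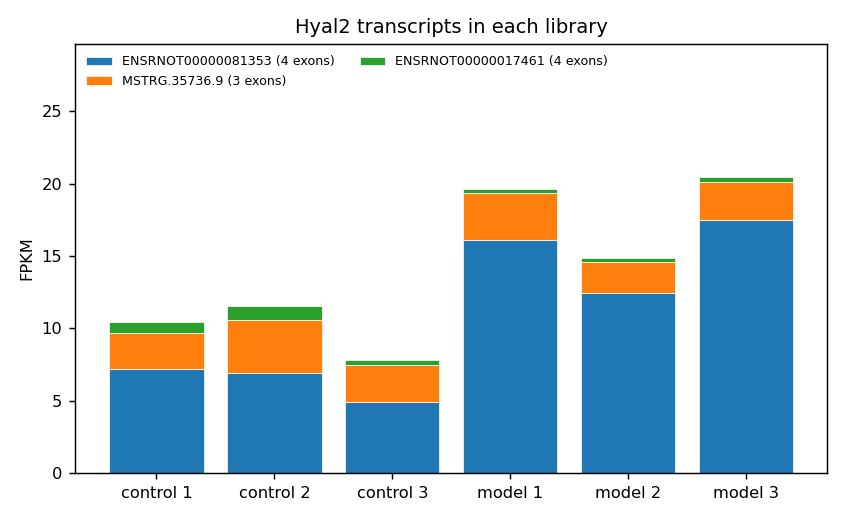
FPKM (vertical axis, linear, from 0) of the 3 Hyal2 transcripts, stacked for each of the 3 control and 3 model libraries, so that the height of a bar is the FPKM of the gene. The blue part, ENSRNOT00000081353, lies between 4.89 and 7.17 in control and between 12.5 and 17.5 in model samples, while the orange part lies between 2.11 and 3.66 in all 6 libraries.

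The assembled transcript MSTRG.35736.9, which has the same start and end but 3 exons and 3559 bases, had an FPKM of 2.51, 3.66 and 2.55 in control and 3.22, 2.11 and 2.60 in model samples. The groups overlapped, with means of 2.91 and 2.64. The third transcript, ENSRNOT00000017461, starts 1246 bases downstream and was low. Its FPKM was 0.745, 0.976 and 0.375 in control and 0.306, 0.296 and 0.364 in model samples, so the groups did not overlap but control 3 and model 3 nearly met, and limma gave an adjusted p of 0.945. The share of ENSRNOT00000081353 in the FPKM of Hyal2 was 63.7% ± 4.57 (SD, n = 3) in control lungs and 83.8% ± 1.73 (SD, n = 3) in model lungs, and the exact permutation p was 0.1.

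How reads are divided among overlapping transcripts bears on these values. An assembled transcript of 13866 bases named after Rassf1, the tumour suppressor gene upstream, runs through the whole of Hyal2 on the same strand, and its FPKM was between 0.910 and 2.22, the highest in control 3, where Hyal2 was lowest. With this transcript added, Hyal2 stood at 11.4, 12.6 and 10.0 in control and 20.6, 16.2 and 21.6 in model samples, still without overlap. Hyal1 is less certain. Its annotated transcript had an FPKM of at most 0.122, and nearly the whole sum came from 7 assembled transcripts, of which the 3 that exceed a mean FPKM of 1 run on into Naa80 or Hyal3 on the same strand. The separate transcripts of Naa80 and Hyal3 were near 0, at most 0.000861 and 0.033 FPKM, so the level given for Hyal1 may hold signal of these neighbours.

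Cd44, the main hyaluronan receptor, at chr3:92695025-92783658 on the minus strand, had an FPKM of 26.1, 25.8 and 25.6 in control samples and 32.5, 28.8 and 28.3 in model samples. The 3 control samples were nearly equal, with a coefficient of variation of 0.863%, and all model samples lay above them. The means were 25.8 ± 0.223 (SD, n = 3) and 29.9 ± 2.26 (SD, n = 3), a difference of 15.6%. The log2 difference was 0.20 ± 0.08 (SE) with an interval from 0.01 to 0.39, and Cd44 met the p threshold in limma with an adjusted p of 0.933. The threshold was met in 8 of 18 alternatives, with adjusted p values between 0.82 and 1. It was no longer met when any 1 library other than model 3 was left out, with differences between 0.14 and 0.224, nor after rescaling without the small RNA families. With annotated transcripts only, the difference shrank to 0.05.

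Cd44 is spliced into a short standard form and into longer forms with variable exons. The assembled transcript MSTRG.23471.2, with 16 exons, was the largest part, at 13.6 ± 4.18 (SD, n = 3) FPKM in control and 16.9 ± 1.61 (SD, n = 3) in model lungs. The form with the fewest exons, ENSRNOT00000009073 with 9 exons, had an FPKM of 6.01, 5.07 and 4.94 in control and 6.53, 5.58 and 6.78 in model samples. ENSRNOT00000009000, with 19 exons, ranged from 2.60 in control 2 to 9.78 in control 1, and in control 1 the 16-exon transcript was at its lowest, 8.87. No Cd44 transcript was called. The sum over the gene was far steadier than its parts, with a coefficient of variation over the 6 libraries of 9.48%, while that of a single transcript above a mean FPKM of 1 reached 98.6%.

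**Figure D4:**
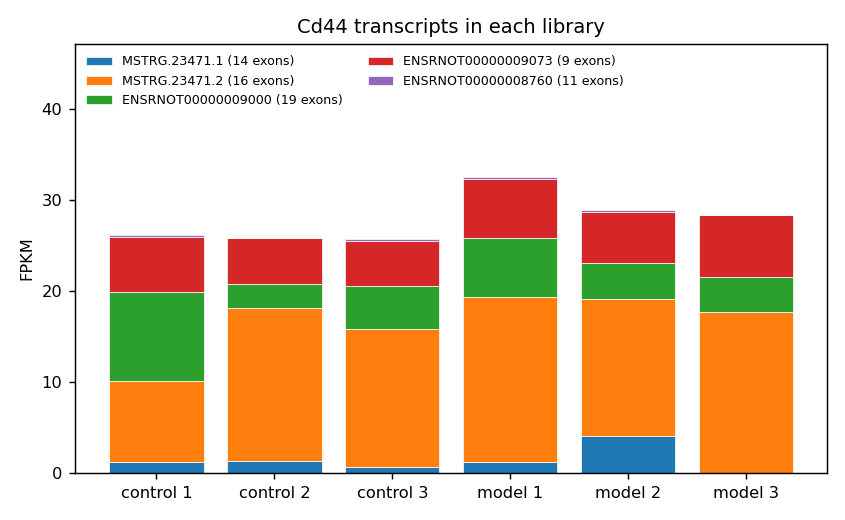
FPKM (vertical axis, linear, from 0) of the 5 Cd44 transcripts, stacked for each control and model library, with the number of exons of each in the legend. The heights lie between 25.6 and 26.1 in control and between 28.3 and 32.5 in model samples, while the division between the 16-exon and 19-exon transcripts differs from library to library within a group.

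Vcan, at chr2:18490102-18565842 on the minus strand, had an FPKM of 2.58, 2.67 and 2.97 in control and 2.84, 3.14 and 3.23 in model samples. Control 3 lay within the model range, and the log2 difference was 0.12 ± 0.12 (SE) with an adjusted p of 0.934 by limma. With annotated transcripts only, the sign was negative (-0.16). Its 5 transcripts showed the same feature as those of Cd44. ENSRNOT00000067456 was listed at 0 in every library except control 3, where its FPKM was 1.26, and in that library MSTRG.18372.3 was nearly absent, at 0.01, against 0.764 to 2.10 in the others. The sum of Vcan varied by 8.88% over the 6 libraries and MSTRG.18372.3, the one with a mean of at least 1, by 64.3%, and none of the 4 Vcan transcripts that were tested was called. ENSRNOT00000067456 was above 0 in too few libraries for a test.

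The small leucine-rich proteoglycans did not separate the groups. Bgn, at chrX:157319046-157331204 on the minus strand, had an FPKM of 189.5, 172.7 and 126.3 in control and 170.3, 144.9 and 212.6 in model samples. The highest value came from model 3 and the lowest from control 3. Among the remaining 4 samples, both controls lay above both models. The log2 difference was 0.11 ± 0.20 (SE), with an interval from -0.37 to 0.60 and an adjusted p of 0.966 by limma, and its sign turned negative without control 3 or without model 3. Dcn, at chr7:38742051-38782323 on the plus strand, had an FPKM of 13.8, 11.9 and 16.3 in control and 12.5, 12.1 and 13.4 in model samples. The model samples lay inside the range of the controls, and the log2 difference was -0.13 ± 0.12 (SE), with an interval from -0.42 to 0.16. Lum, which lies close to Dcn on chr7:38819771-38826862, had an FPKM of 3.44, 2.40 and 2.97 in control and 2.74, 2.21 and 3.04 in model samples. These also overlapped, with a log2 difference of -0.10 ± 0.16 (SE) and an adjusted p of 0.959 by limma. The ratio of Lum to Dcn was 0.211 ± 0.0343 (SD, n = 3) in control lungs and 0.21 ± 0.0232 (SD, n = 3) in model lungs. Bgn was 12.7 times as high as Dcn by mean FPKM over the 6 samples. The intervals of Bgn, Dcn and Lum all included 0.

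The 84 other genes of the pathway were taken from 4 lists, and 72 were found and 68 tested. None was called, by limma or the F test, and none had a p of at most 0.05 by limma, against the 1.52% and 4.91% of all gene names, while 9 of the 68 had groups without overlap, where the share over all gene names was 10.7%. Of the 68, 42 had a positive and 26 a negative log2 difference, and their median was 0.04. Among 22 tested genes of hyaluronan synthesis, breakdown and binding, the highest by FPKM were Lyve1, the hyaluronan receptor of lymphatic vessels, with 30.6 ± 9.66 (SD, n = 3) in control lungs and 29.7 ± 3.21 (SD, n = 3) in model lungs, and Hexa, a subunit of lysosomal hexosaminidase, with 22.0 ± 2.52 (SD, n = 3) and 25.1 ± 4.19 (SD, n = 3). Both overlapped between the groups. Among 9 lecticans and ADAMTS proteases that cut them, Adamts1 (21.1 in control, 18.9 in model) and Adamts15 (14.4 and 15.9) were the highest. Of 10 further small leucine-rich proteoglycans, Prelp (41.7 and 37.0) and Fmod, or fibromodulin (15.3 and 18.1), were the highest. Prelp lay above Dcn in every library, while Fmod and Dcn overlapped. Of 27 genes that build chondroitin, dermatan and keratan sulfate chains, Chst11 (29.1 and 31.3) and Chsy3 (20.4 and 19.1) were the highest. The plot of the lists shows that Hyal2 had the largest positive difference on this scale of the members and the 68 other genes. The nearest point is Ogn, or osteoglycin, named here after its values were seen, which was listed at 0 in control 2 and had an FPKM between 5.53 and 12.5 in the other libraries.

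**Figure D5:**
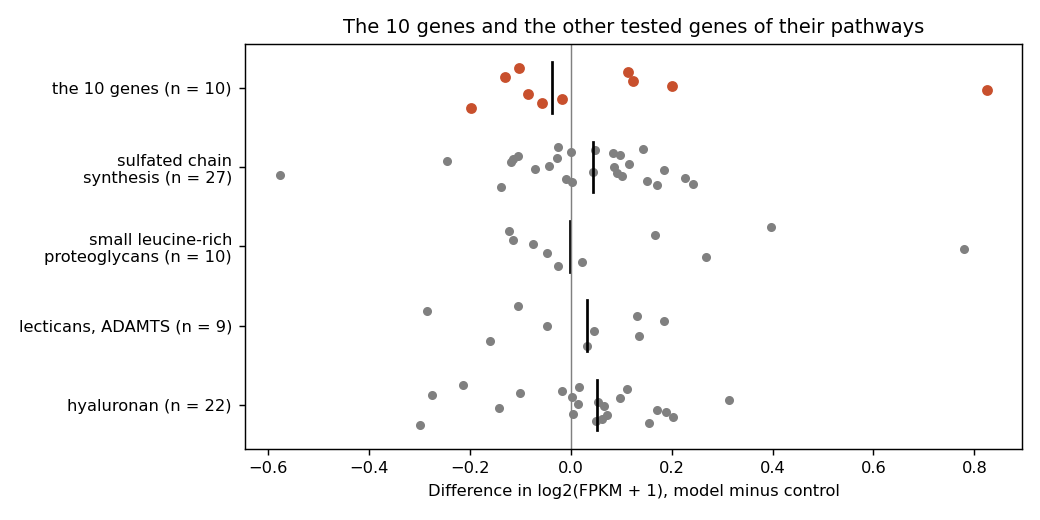
Difference in log2(FPKM + 1), model minus control (horizontal axis), for the 10 genes in red and the 68 other tested genes of the 4 pathway lists in grey, 1 point per gene, with a black line at the median of each list. Hyal2 is the red point at 0.83, and the medians of the lists lie between 0.00 and 0.05.

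Markers of the cells that make these genes were read in the same libraries. The summed FPKM of 7 fibroblast markers was 356 to 378 in control and 384 to 501 in model samples, without overlap, and for 6 of the 7 the model mean was higher. Col3a1, the largest part of the sum, was the only 1 of the 7 whose groups did not overlap, with means of 168.5 and 208.3. It was also the only 1 with a p of at most 0.05 by limma. Pdgfra was lower in the model, with means of 26.1 and 24.9. The sums of 8 markers of myofibroblasts and matrix (194 to 257 in control, 216 to 282 in model), 6 of macrophages and leukocytes (89.3 to 105 and 77.3 to 102), 6 of alveolar epithelium (4470 to 6210 and 5250 to 6810) and 2 of endothelium (137 to 253 and 191 to 222) overlapped. So did those of 2 airway markers (4510 to 7690 and 4060 to 6140), 4 of smooth muscle (54.0 to 71.7 and 49.4 to 91.3) and 3 of mesothelium (4.66 to 9.10 and 5.29 to 11.1). Cartilage markers, 5 of which were found, were low (3.50 to 4.26 and 3.50 to 3.80), with Acan at most 0.057 FPKM. Markers of lung were thus present in every library. Like Hyal2 and Cd44, the fibroblast sum was higher in every model library than in every control library, but of its 7 markers only Col3a1 was. Within the model group, the fibroblast sum and Hyal2 were both highest in model 3, where Cd44 was lowest. The fibroblast sum was lowest in model 1, where Cd44 was highest, and Hyal2 was lowest in model 2. The part of the fibroblast sum in either result was not tested. Model 3 stood apart by markers of heart muscle, with a sum of 25.6 against 5.94 to 10.5 in the other 5 libraries. Without it, the log2 difference of Hyal2 was 0.74 (adjusted p = 0.983 by limma), that of its transcript ENSRNOT00000081353 was 1.07 and that of Cd44 was 0.23. Summed over all transcripts, about 35800000 to 41100000 reads were estimated per library, and small RNA families took 34.2% to 46.4% of the summed FPKM.

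For Dcn, Lum, Bgn and Cd44, the nearest genes by profile over the 6 samples were found among 14320 gene names with a mean FPKM of at least 1. The measure was the root mean square distance between the log2(FPKM + 1) values after the mean of each gene was removed. Nearest to Dcn were Pdlim5, Ero1a and Sgcb, at distances of 0.0262 to 0.0306, against a spread of Dcn itself of 0.143. Lum stood at rank 1515 in that order. Nearest to Lum were Hif1an, Zfp106 and AC120486.8, and nearest to Bgn were Zmat2, Ndufs5 and Gpx7. Brd7, B3gnt9 and LOC100911068 were nearest to Cd44. With 6 samples this nearness is a description only, and no other member was among the 3 nearest of any of these.

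Circular RNAs were the other readout of these libraries, counted as reads across a back-splice. Of 5216 circular RNAs in the table, 3 came from a member, all from Cd44. One had 1 read in model 2 and the other two had 1 read each in model 3, and all 3 were at 0 in the other 4 libraries. Each of the 6 libraries held between 2037 and 2964 back-splice reads. No back-splice read was listed for the other 9 genes, and a count of 0 allows up to 3 reads per library. At this depth a difference between the groups was not detectable.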

How the data were processed

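RNA of 6 rat lungs, 3 control and 3 model, was sequenced as paired reads of 150 bases, and the labels gave the group of each sample. After trimming with Cutadapt, the authors mapped the reads (the methods name Bowtie2 and Tophat2, the submitters' processing notes HISAT2 and TopHat), assembled and merged transcripts with StringTie and deposited FPKM per transcript. The authors also deposited per-base coverage, a signal not normalized for library size, raw counts of back-splice reads, and SRPBM, a normalized back-splice signal that was not used here. The genome build of these files is not given in the sources used here. The kit named in the labels is stranded, and the strand setting of the quantification is not given. Coordinates are those of the files unless GRCr8 is named. All 24 measurement columns were assigned to a sample.

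FPKM were summed per gene name. Features with FPKM above 0 in at least 3 of 6 samples were tested with limma 3.58.1 (with trend, two-sided) in R 4.3.3 on log2(FPKM + 1), with Benjamini-Hochberg adjustment over all features. For single ratios and shares, exact permutation tests covered all 20 regroupings. The replicates are separate rats. The fit was checked on simulated data with 200 changed genes. Reads were estimated as coverage times length over 150. The miRNA libraries were not analysed here.

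The members and lists were chosen with earlier results of these data known. The features named are all members, member transcripts that were called or whose mean FPKM was 1 or more, other pathway genes that were called or had a p of at most 0.05, the 2 highest of each list by mean FPKM and, for Dcn, Lum, Bgn, Vcan and Cd44, the 3 nearest genes, of which those of Vcan are not reported here. Low member transcripts, the neighbours of Hyal1 and Hyal2, Ogn, single markers and the genes named for the alternatives were chosen after their values were seen. Alternatives were pseudocounts of 0.1 and 0.01, other filters, scalings, tests and gene sums, a replicate block and the omission of each library. The addition of overlapping transcripts to Hyal1 and Hyal2 was chosen after seeing the data. Other steps used scipy 1.17.1, numpy 2.4.6 and pandas 2.3.3 under Python 3.11.15.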

Additional observations from a re-analysis of the deposited data

Results flagged for a closer look

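Back-splice reads of Cd44 were listed in model libraries and in no control library. They came to 3 reads over the model libraries, 1 in model 2 and 2 in model 3, against 0 in the 3 control libraries. No single library exceeded the 3 reads per library that a count of 0 allows.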

How the results depend on the processing

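Of the 10 genes, Hyal2, Cd44, Has1, Has2, Dcn and Lum kept the sign of their log2 difference under every alternative run. Hyal2 was called with annotated transcripts only (1.06, adjusted p = 0.686 by limma), without control 2 (0.93) and without model 2 (0.96), so 1 member was called there, against 0 otherwise, and leaving out 1 library gave 0 to 1. Leaving out 1 library gave 1 to 2 called member transcripts, 0 to 2 called pathway genes and 1 to 4 gene names with an adjusted p below 0.05. The second transcript called was ENSRNOT00000088313 of Vcan without control 1, MSTRG.35738.2 of Hyal1 without control 2 and ENSRNOT00000017461 of Hyal2 without control 3. The pathway genes called were Hapln3 and Podnl1 without model 1 and Itih4 without model 2. With annotated transcripts only they were Uap1, Cemip2, Chad and Fam20b, 4 in all. Of all gene names tested, 355 of 19346 were called without model 1, 396 of 19334 without model 2 and 328 of 19369 without control 2. With annotated transcripts only, 519 of 18967 gene names were called. Of all transcripts tested, 2.98% were called with every library kept. Has3 turned positive after rescaling to TPM (0.0539), rescaling without small RNA families (0.0249) and quantile normalization (0.00731), and with annotated transcripts only (0.13), and it lay between -0.0987 and 0.072 when 1 library was left out. Vcan was -0.16 with annotated transcripts only. Bgn lay between -0.0578 and 0.244 and Hyal1 between -0.33 and 0.19 when 1 library was left out. The causes were not tested.

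Of all gene names, 298 were called, 130 higher and 168 lower in the model, and rescaling to TPM gave 196 higher and 141 lower. The count was 84 with a mean FPKM of at least 1 and 519 with annotated transcripts only. It was 159 by the F test on untransformed FPKM with the library covariate. Gene names with an adjusted p below 0.05 were 2, against 4 after rescaling without small RNA families, 7 with annotated transcripts only, and 0 by the F test and with a replicate block. The replicate numbers did not pair the samples, since deviations of same-numbered samples correlated at 0.07, 0.03 and -0.09. The replicate block gave 312 called gene names, 0 called members and 1 called member transcript. The few reads of Has1 and Has2 limit both.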
